A study of Mus musculus with 33 samples.

Results

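The genes described here are 10 members of the Notch pathway, taken by symbol from the 55487 genes of the deposited count table. They are the receptors Notch1, Notch2, Notch3 and Notch4, the ligands Jag1, Jag2 and Dll1, and the targets Hes1, Hey1 and Heyl. All 10 passed the filter on low counts (at least 10 reads summed over the libraries) and were tested.

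The study asked how loss of PTHrP, the parathyroid hormone-related peptide encoded by Pthlh, alters mammary epithelium as tumors arise, using mice of FVB background with an MMTV-Cre transgene and the ROSA mTmG reporter, in which cells that have expressed Cre turn from red to green fluorescence. PTHrP WT mice were Pthrp wt/wt and PTHrP KO mice were Pthrp flox/flox, and all of them carried Cre. Tumor mice also carried the MMTV-PyMT oncogene, and tumor-free mice did not. Sorted GFP+ cells of 33 mice, kept in culture medium for 48 h before the sort, gave 1 RNAseq library each. WT tumors were collected at weeks 6, 8 and 10 (3 mice each) and week 12 (1 mouse), KO tumors at weeks 8, 10 and 12 (3 each), WT glands at weeks 6, 8, 10 and 12 (2 each) and KO glands at weeks 8, 10 and 12 (2 each). Because the MMTV promoter drives both Cre and the oncogene, the cells compared are those in which that promoter had been active.

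Notch receptors are membrane proteins cleaved after contact with a ligand on a neighboring cell, and the released intracellular domain joins the DNA-binding protein RBPJ in the nucleus to switch on targets such as the Hes and Hey repressors. In the mammary gland the pathway is known for its part in the choice between basal and luminal fates, and several ligands are made by basal cells. Notch4 was found in mice as an integration site of the mammary tumor virus, and its truncated form is a mammary oncogene.

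The libraries held 28419983 to 130981596 counted reads (median 46351179). The share of reads on rRNA genes reached 18.8% in KO glands and 12.0% in KO tumors but at most 0.447% in WT libraries, so this share moved with genotype. Reads of Pthlh did not separate the labels: they ranged from 1.35 to 2.29 CPM (a gene's reads relative to the total of the library after TMM scaling) in KO tumors against 1.46 to 6.67 CPM in WT tumors, and from 2.79 to 8.52 CPM in KO glands against 2.93 to 7.72 CPM in WT glands. The count covers the whole gene, including exons outside the floxed part, and is therefore no check of the genotype. Reads at the floxed exon alone were not analysed here. Luminal keratin and junction genes (10 markers) summed to 6316 to 15404 CPM across the groups and the 10 basal and myoepithelial markers to 1130 to 17361 CPM. Each of 10 lymphocyte markers had a median under 1 CPM in every group, though they summed to 26.9 CPM in 1 KO gland of week 10. Fibroblast markers summed to 365 CPM in that gland and to 1209 CPM in 1 WT gland of week 8, where macrophage markers summed to 43.2 CPM.

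Hey1 rose, Notch4 rose, and Jag1 and Jag2 fell in tumors of both genotypes. Of the 10 genes, 6 passed the threshold in WT tumors against WT glands averaged over weeks 6, 8 and 10, where 15.7% of all 36527 genes tested did, and 4 passed it in KO tumors against KO glands averaged over weeks 8, 10 and 12, where 10.6% did. A gene was called when its fold change was over 1.5 and its adjusted p was under 0.1 by edgeR's quasi-likelihood test with Benjamini-Hochberg adjustment over all genes. The WT calls were 2 higher (6.21% of all genes) and 4 lower (9.53%), and the KO calls were 2 higher (5.16%) and 2 lower (5.44%). The median log2 fold change of the 10 genes was -0.29 in WT and 0.03 in KO tumors, beside 0.03 and 0.09 over all genes. In bulk RNA of sorted cells, fewer cells of a type and less RNA per cell cannot be told apart.

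**Figure D1:**
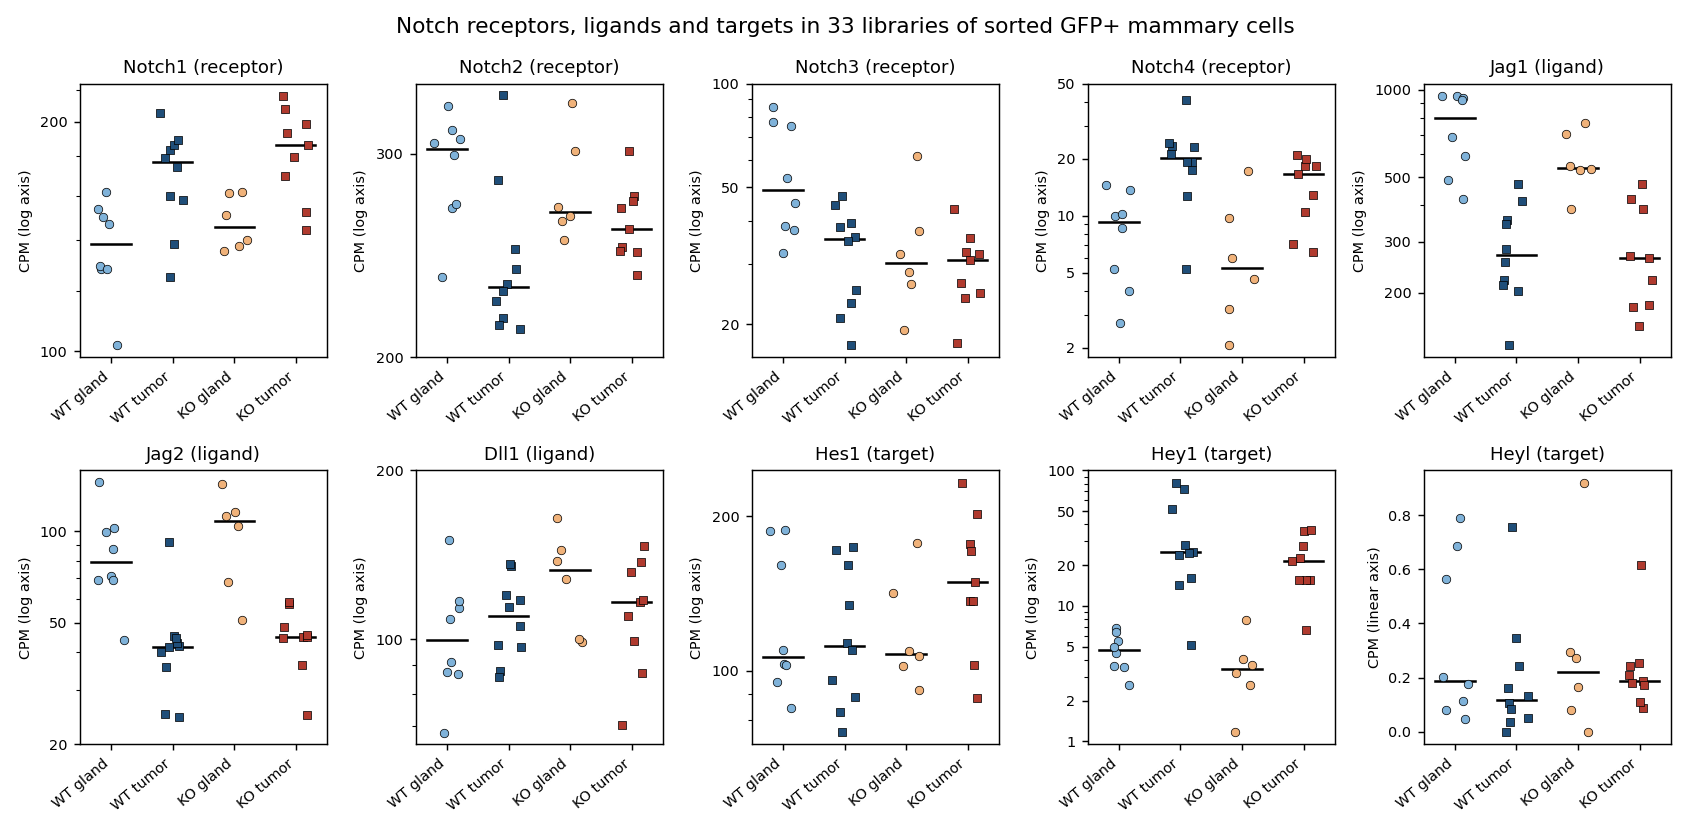
CPM of the 10 genes in every library by group (circles, glands; squares, tumors; line, median over the group), on log axes except for Heyl, which has libraries at 0. Jag1 lay lower, and Hey1 and Notch4 higher, in most tumors of both genotypes.

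**Figure D2:**
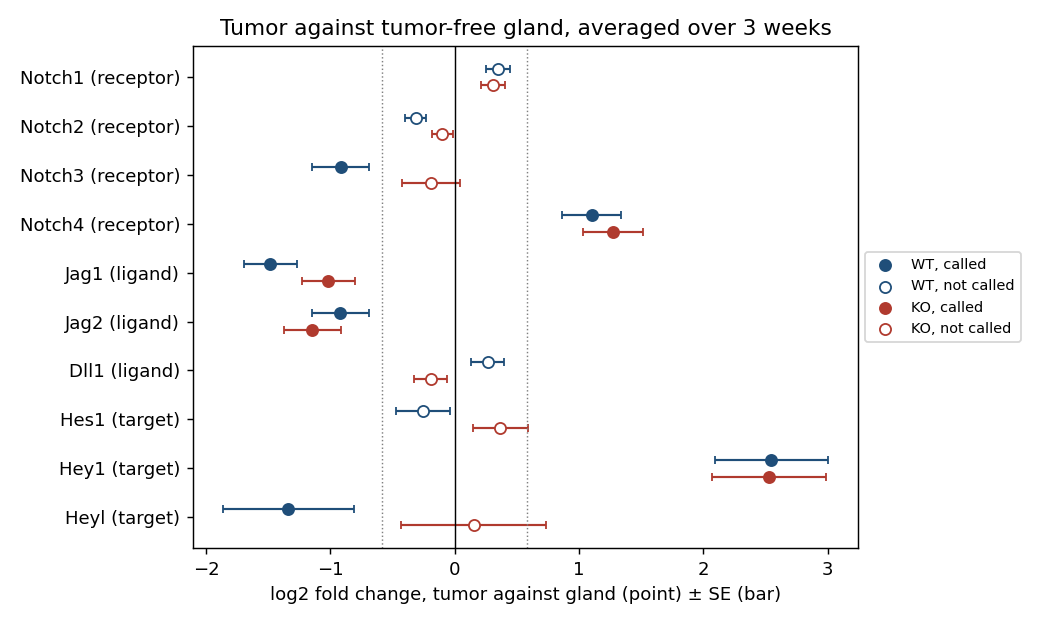
Log2 fold change of each gene in tumors against glands of the same genotype (point) with its SE (bar), averaged over 3 weeks; filled points were called and dotted lines mark a fold change of 1.5. Hey1 and Notch4 lie to the right and Jag1 and Jag2 to the left in both genotypes.

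Per kb of exonic length, Notch2 was the most abundant receptor in all 4 groups. It made up a median of 55.2% of the summed receptor level per kb in WT tumors and 55.2% in KO tumors, 59.4% in WT glands and 62.6% in KO glands. Notch1 followed with 28.9% in WT tumors, 29.8% in KO tumors, 21.3% in WT glands and 24.3% in KO glands. Notch3 held medians between 8.41% and 14%, and Notch4 between 1.66% and 6.47%. The ranges of Notch1 and Notch2 did not meet within any group, and those of Notch3 and Notch4 met in tumors only, going by their lowest and highest shares.

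Notch1, a receptor active in luminal progenitors (chromosome 2, 26457903 to 26516663, minus strand, GRCm38), shifted by less than the fold threshold. It ranged from 125 to 189 CPM (median 175) in the 9 WT tumors of weeks 6 to 10 and from 102 to 150 CPM (median 129) in the 6 WT glands, with 7 of 9 tumors above every gland. The log2 fold change was 0.35 ± 0.10 (SE), with an adjusted p of 0.012 by edgeR. In KO mice it ranged from 144 to 216 CPM (median 187) in 9 tumors and from 135 to 162 CPM (median 145) in 6 glands, again with 7 of 9 tumors above every gland, and the log2 fold change was 0.31 ± 0.10 (adjusted p = 0.033 by edgeR).

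Notch2 (chromosome 3, 98013527 to 98150361, plus strand) was slightly lower in WT tumors, at 211 to 337 CPM (median 232) against 272 to 330 CPM (median 308) in WT glands. Of the 9 tumors, 7 lay below every gland and 1, at 337 CPM, lay above all of them. The log2 fold change of -0.31 ± 0.08 had an adjusted p of 0.0086 by edgeR but did not reach the fold threshold. In KO mice the tumors spanned 236 to 302 CPM (median 258) and the glands 253 to 332 CPM (median 267), and the difference of -0.10 ± 0.08 did not pass (adjusted p = 0.60 by edgeR).

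Notch3, a receptor best known from mural cells of vessels (chromosome 17, 32120820 to 32166852, minus strand), fell in WT tumors by 0.92 ± 0.23 on the log2 scale (adjusted p = 0.0051 by edgeR). WT tumors held 17.3 to 47.2 CPM (median 35.0) and WT glands 32.3 to 85.4 CPM (median 64.4). The groups overlapped, with 4 of 9 tumors below every gland. KO tumors held 17.6 to 43.3 CPM (median 30.8) and KO glands 19.3 to 61.5 CPM (median 30.1), a log2 difference of -0.19 ± 0.23 (adjusted p = 0.80 by edgeR). Whether the tumor effect on Notch3 differed with genotype was tested over weeks 8 and 10, which both genotypes share, and gave -0.47 ± 0.40 (adjusted p = 1.0 by edgeR), so no difference was shown. Markers of several cell types moved beside Notch3 in WT tumors: 8 of 10 luminal hormone-sensing, 7 of 10 fibroblast and 5 of 9 pericyte markers fell, and 2 pericyte markers rose. Over all WT tumors and glands, the hormone-sensing markers summed to 157 to 284 CPM and 226 to 605 CPM, the fibroblast markers to 36.5 to 224 CPM and 71.1 to 1209 CPM, and the pericyte markers to 100 to 236 CPM and 221 to 866 CPM. The 3 WT glands with the most Notch3 (85.4, 77.4 and 75.5 CPM) had the highest hormone-sensing sums of the WT glands (594, 605 and 486 CPM). Their fibroblast sums were 1209, 179 and 520 CPM. The WT gland with the highest pericyte sum (866 CPM) held the least Notch3, and it also had the highest basal and myoepithelial sum (17361 CPM). In WT glands 6 of the pericyte markers had a median under 1 CPM. In KO tumors 5 hormone-sensing markers fell and 1 rose, 1 fibroblast marker fell, and 2 pericyte markers fell and 2 rose. Hormone-sensing markers summed to a median of 264 CPM in KO tumors and 187 CPM in KO glands. The part of these markers in the Notch3 result was not tested.

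Notch4 (chromosome 17, 34564268 to 34588503, plus strand) was the least abundant receptor per kb by its median and the 1 receptor called higher in the averaged comparisons. In WT tumors it was at 19.2, 24.2 and 12.8 CPM at week 6, at 23.1, 23.3 and 21.1 CPM at week 8, and at 17.5, 41.0 and 19.3 CPM at week 10. The WT glands held 10.0 and 14.6 CPM, 5.21 and 13.8 CPM, and 8.63 and 10.26 CPM in the same weeks. All WT tumors of these weeks but 1, of week 6, lay above every gland. The log2 fold change was 1.10 ± 0.24 (adjusted p = 0.0012 by edgeR).

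In KO tumors Notch4 was at 12.9, 6.45 and 7.11 CPM at week 8, at 16.7, 20.1 and 18.3 CPM at week 10, and at 21.0, 18.3 and 10.4 CPM at week 12. KO glands held 3.22 and 2.07 CPM, 17.2 and 9.69 CPM, and 4.65 and 5.96 CPM. The groups overlapped more than in WT mice, since both glands of week 10 lay within the tumors' range and 4 of 9 tumors lay above every gland, while the averaged log2 fold change was 1.27 ± 0.24 (adjusted p = 0.00047 by edgeR). Notch4 is widely known as a receptor of endothelial cells. The 10 endothelial markers summed to 1.89 to 3.65 CPM in WT tumors and 3.01 to 9.58 CPM in WT glands, all 10 had a median under 1 CPM in WT tumors, and 5 of them fell and none rose there. In KO mice they summed to 2.41 to 6.68 CPM in tumors and 3.03 to 18.1 CPM in glands, and 1 of 10 fell. Notch4 was above the summed endothelial markers in all 10 WT and all 9 KO tumors, and below them in 2 of 8 WT and 3 of 6 KO glands. The KO gland with the most Notch4 also had the highest endothelial sum of all libraries (18.1 CPM), and the 2 WT glands with the most Notch4 had the highest endothelial sums of the WT glands (7.42 and 9.58 CPM). The part of endothelial cells in the Notch4 result was not tested.

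Jag1, the most abundant of the 3 ligands per kb (chromosome 2, 137081456 to 137116644, minus strand), was the 1 gene of the 10 that separated fully in WT mice of weeks 6 to 10. In WT tumors it was at 346, 414 and 473 CPM at week 6, at 255, 284 and 222 CPM at week 8, and at 203, 357 and 213 CPM at week 10. WT glands held 939 and 920 CPM, 950 and 686 CPM, and 952 and 591 CPM. All 9 tumors lay below all 6 glands, a separation found in this direction for 3.53% of all genes and in the other for 2.45%. The log2 fold change was -1.48 ± 0.21 (adjusted p = 9.1e-06 by edgeR). The 2 WT glands of week 12, outside this comparison, held 421 and 489 CPM, and the first of them lay below the tumor at 473 CPM.

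KO tumors held Jag1 at 475, 178 and 154 CPM at week 8, at 388, 263 and 267 CPM at week 10, and at 421, 221 and 182 CPM at week 12. KO glands held 546 and 388 CPM, 533 and 768 CPM, and 704 and 531 CPM. The groups met at the tumors of 475 and 421 CPM and the gland of 388 CPM, and 7 of 9 tumors lay below every gland. The log2 fold change was -1.02 ± 0.21 (adjusted p = 0.0012 by edgeR). None of the 10 genes separated fully in KO mice, where 1.99% of all genes had every tumor above every gland and 1.44% had every tumor below.

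Jag2, the second Jagged ligand (chromosome 12, 112907819 to 112929776, minus strand), fell as well. WT tumors ranged from 24.5 to 92.4 CPM (median 42.1) and WT glands from 43.9 to 145 CPM (median 78.4), with 6 of 9 tumors below every gland and 1 tumor of week 10 at 92.4 CPM among the glands. The log2 fold change was -0.92 ± 0.23 (adjusted p = 0.0049 by edgeR). KO tumors ranged from 24.9 to 58.5 CPM (median 45.0) and KO glands from 50.9 to 143 CPM (median 108), with 7 of 9 tumors below every gland, and the log2 fold change was -1.15 ± 0.23 (adjusted p = 0.00079 by edgeR).

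Basal and myoepithelial markers moved in the same direction as Jag1 and Jag2. All 10 of them fell in WT tumors and 9 of 10 fell in KO tumors, with median log2 fold changes of -2.81 and -2.66. Their summed level was 1130 to 3247 CPM in WT tumors against 4693 to 17361 CPM in WT glands, and 1548 to 4814 CPM in KO tumors against 4997 to 16599 CPM in KO glands. The sums thus did not overlap in either genotype, but single markers could. Krt14 spanned 353 to 1402 CPM in WT tumors and 804 to 2371 CPM in WT glands, and 385 to 1017 CPM in KO tumors and 987 to 2003 CPM in KO glands. None of the 10 was at 0 in any group. In tumors of both genotypes 9 of 10 luminal progenitor and alveolar markers rose and Aldh1a3 fell. The part of these markers in the results of the 10 genes was not tested.

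Dll1, a Delta-like ligand linked with mammary stem cells (chromosome 17, 15367354 to 15376872, minus strand), did not pass in either genotype. It ranged from 85.7 to 136 CPM (median 114) in WT tumors and from 68.0 to 114 CPM (median 89.2) in WT glands, a log2 difference of 0.27 ± 0.13 (adjusted p = 0.19 by edgeR). KO tumors at 70.3 to 147 CPM (median 117) and KO glands at 98.8 to 165 CPM (median 133) overlapped widely, with a log2 difference of -0.19 ± 0.13 (adjusted p = 0.45 by edgeR). The tumor effect of the genotypes differed by 0.50 ± 0.23, which did not pass (adjusted p = 0.88 by edgeR).

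The make-up of the 3 ligands was described per kb. Here Jag1 held a median of 79.6% of their sum in WT glands and 58.7% in WT tumors, and 70.2% in KO glands and 53.6% in KO tumors. Dll1 held 13% and 34.0% in WT glands and tumors, and 20.5% and 36.6% in KO glands and tumors. These shares were not tested.

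**Figure D3:**
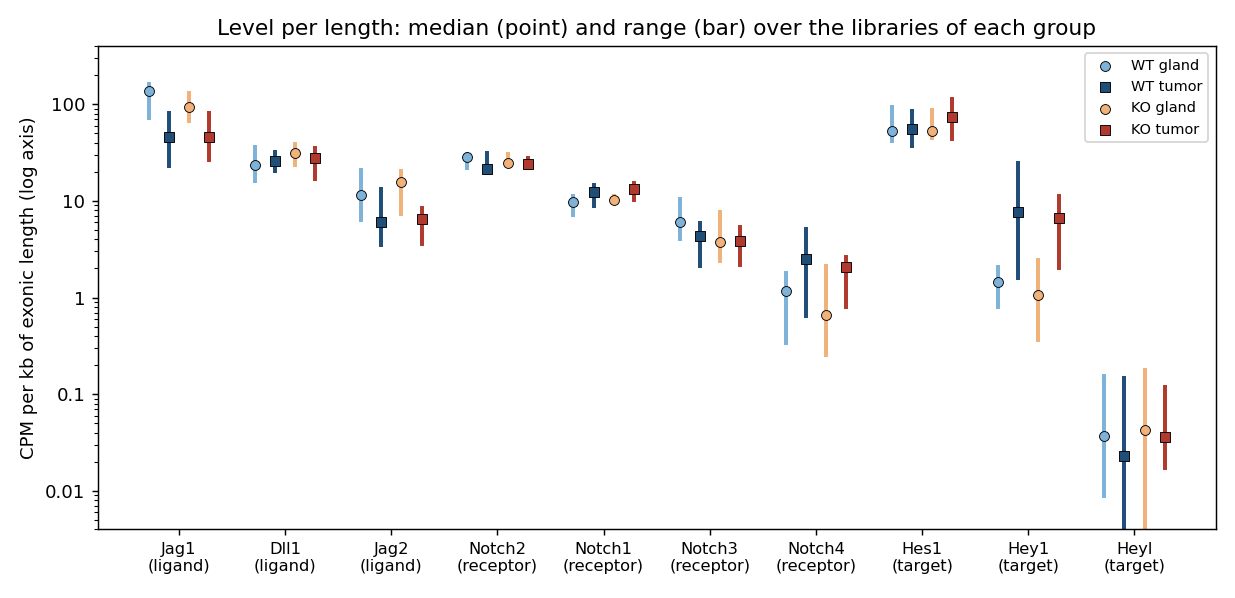
Level of each gene as CPM per kb of exonic length on a log axis, with the median (point) and the range (bar) over the libraries of each group; bars of Heyl that touch the lower edge include a library at 0. Jag1 and Hes1 were highest, and Heyl lay far below the other 9 genes.

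For 7 of the 10 genes the RefSeq table holds promoters (GRCm38.p6), 8 in all since Dll1 has 2. Promoters of Hes1, Hey1 and Heyl were not in it. In the 250 bases before the start site, the core that RBPJ binds (TGGGAA, either strand) was found in 0 of the 8, and in 21.6% of 32851 promoters of the same length. The sequence CACGNG, bound by Hes and Hey repressors in its CACGCG form, was found on either strand in 5 of the 8 and in 23.5% of all. It occurred at Jag1 (2 matches), Notch2, Notch3 and both Dll1 promoters, and not at Jag2, Notch4 or Notch1. The CACGCG form alone was found in 3 of the 8 (both matches at Jag1, Notch2 and 1 of the Dll1 promoters) and in 7.62% of all. The stretches of Jag1 and Notch4 upstream of any annotated transcript of these genes are shown because these genes fell and rose in both genotypes, with CACGNG in capitals. The Jag1 stretch of 126 bases lies at chr2:137116645-137116770 (minus strand) and the Notch4 stretch of 223 bases at chr17:34564045-34564267 (plus strand), both 5′ to 3′. The same windows of Jag2 lie inside the annotated gene and are not shown. A match of letters describes the sequence and does not show binding.
Jag1: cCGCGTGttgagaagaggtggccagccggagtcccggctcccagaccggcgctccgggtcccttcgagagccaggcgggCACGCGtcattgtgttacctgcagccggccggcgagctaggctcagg
Notch4: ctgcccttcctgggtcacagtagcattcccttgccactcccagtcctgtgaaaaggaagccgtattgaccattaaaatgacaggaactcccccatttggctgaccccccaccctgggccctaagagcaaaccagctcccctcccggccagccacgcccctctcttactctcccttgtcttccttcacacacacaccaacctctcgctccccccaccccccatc

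Among the targets, the repressor Hey1 (chromosome 3, 8663359 to 8667256, minus strand) showed the largest change of the 10 genes. In WT tumors it was at 23.8, 24.6 and 5.16 CPM at week 6, at 25.2, 28.3 and 51.7 CPM at week 8, and at 73.3, 14.1 and 16.1 CPM at week 10. WT glands held 4.48 and 4.94 CPM, 3.61 and 6.83 CPM, and 2.60 and 6.4 CPM. Of the 9 tumors, 8 lay above every gland and the tumor at 5.16 CPM lay among the glands. The tumor mean was 6.06 times the gland mean, and the log2 fold change was 2.54 ± 0.46 (adjusted p = 0.00016 by edgeR).

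KO tumors held Hey1 at 15.4, 15.4 and 27.6 CPM at week 8, at 15.6, 21.6 and 22.6 CPM at week 10, and at 6.64, 35.4 and 36.2 CPM at week 12. KO glands held 3.69 and 4.04 CPM, 3.20 and 2.63 CPM, and 7.92 and 1.18 CPM. Again 8 of 9 tumors lay above every gland, and the low one was of week 12, the KO tumor in which Jag1 was at 421 CPM. The tumor mean was 5.78 times the gland mean, and the log2 fold change was 2.53 ± 0.46 (adjusted p = 0.00028 by edgeR). The difference of the tumor effect between genotypes was 0.30 ± 0.73, with an interval of 2 SE from -1.16 to 1.76, which holds differences of over 3-fold.

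Hes1, a repressor read out in many tissues as a Notch target (chromosome 16, 30064384 to 30067796, plus strand), was not called in either genotype. Its level was 76.1 to 174 CPM (median 110) in WT tumors and 84.5 to 188 CPM (median 132) in WT glands, and 88.5 to 233 CPM (median 149) in KO tumors and 91.7 to 178 CPM (median 108) in KO glands. All ranges overlapped, and the log2 differences were -0.26 ± 0.22 (adjusted p = 0.49 by edgeR) and 0.37 ± 0.22 (adjusted p = 0.36 by edgeR). Per kb Hes1 was the most abundant of the targets in every group, with medians of 52.2 to 73.1 CPM per kb against 1.06 to 7.62 CPM per kb for Hey1.

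Heyl, the third target (chromosome 4, 123233556 to 123249875, plus strand), was close to the limit of detection, with 0 to 39 reads per library and 0.92 CPM at most. It was called lower in WT tumors, at -1.34 ± 0.52 on the log2 scale (adjusted p = 0.081 by edgeR), with tumors at 0 to 0.756 CPM (median 0.132) and glands at 0.0453 to 0.788 CPM (median 0.383). The call was lost on leaving out any of 9 of the 15 libraries, and without the second WT gland of week 6 the log2 difference was -0.43. In KO mice it was 0.15 ± 0.59 (adjusted p = 1.0 by edgeR), with tumors at 0.0875 to 0.615 CPM (median 0.185) and glands at 0 to 0.92 CPM (median 0.219), overlapping throughout.

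Leaving out any single library of the averaged comparisons kept the calls of Hey1, Notch4, Jag1 and Jag2 in both genotypes and of Notch3 in WT tumors. Hey1 then ranged from 2.15 to 2.80 on the log2 scale in WT and from 2.30 to 3.20 in KO tumors, and Jag1 from -1.59 to -1.36 and from -1.25 to -0.92.

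By single week, with 3 tumors against 2 glands, 15 calls were made. In WT tumors 1 of the 10 genes was called at week 6 (5.86% of all genes were), 5 at week 8 (9.19%) and 3 at week 10 (6.13%). In KO tumors 1 was called at week 8 (2.49%), 1 at week 10 (5.66%) and 4 at week 12 (6.11%). Jag1 was called at weeks 6, 8 and 10 in WT tumors, at -1.18 ± 0.37, -1.69 ± 0.37 and -1.58 ± 0.37 (adjusted p = 0.071, 0.0036 and 0.0096 by edgeR). Hey1 was called at weeks 8 and 10 in WT tumors (2.74 ± 0.80 and 2.96 ± 0.81) and at weeks 10 and 12 in KO tumors (2.77 ± 0.81 and 2.48 ± 0.79). Its log2 difference of 1.93 ± 0.77 at week 6 in WT tumors did not pass (adjusted p = 0.19 by edgeR), and neither did 2.33 ± 0.79 at week 8 in KO tumors (adjusted p = 0.17 by edgeR).

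Notch4 was called at weeks 8 and 10 in WT tumors (1.24 ± 0.41 and 1.46 ± 0.42) and at weeks 8 and 12 in KO tumors (1.72 ± 0.44 and 1.65 ± 0.43). Jag2 was called at week 8 in WT tumors (-1.60 ± 0.40) and at week 12 in KO tumors (-1.41 ± 0.40), where Jag1 was too (-1.17 ± 0.37). Notch1 was called once, at week 8 in WT tumors (0.61 ± 0.17, adjusted p = 0.027 by edgeR). These weekly calls leaned on single libraries: 14 of the 15 were lost on leaving out at least 1 of their 5 libraries, and the exception was Jag1 at week 8 in WT tumors. Without the first WT tumor of week 10 the Hey1 value of that week was 1.77, without the first WT gland of week 8 the Notch4 value was 0.71, and without the first KO gland of week 12 the Jag2 value was -0.48.

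**Figure D4:**
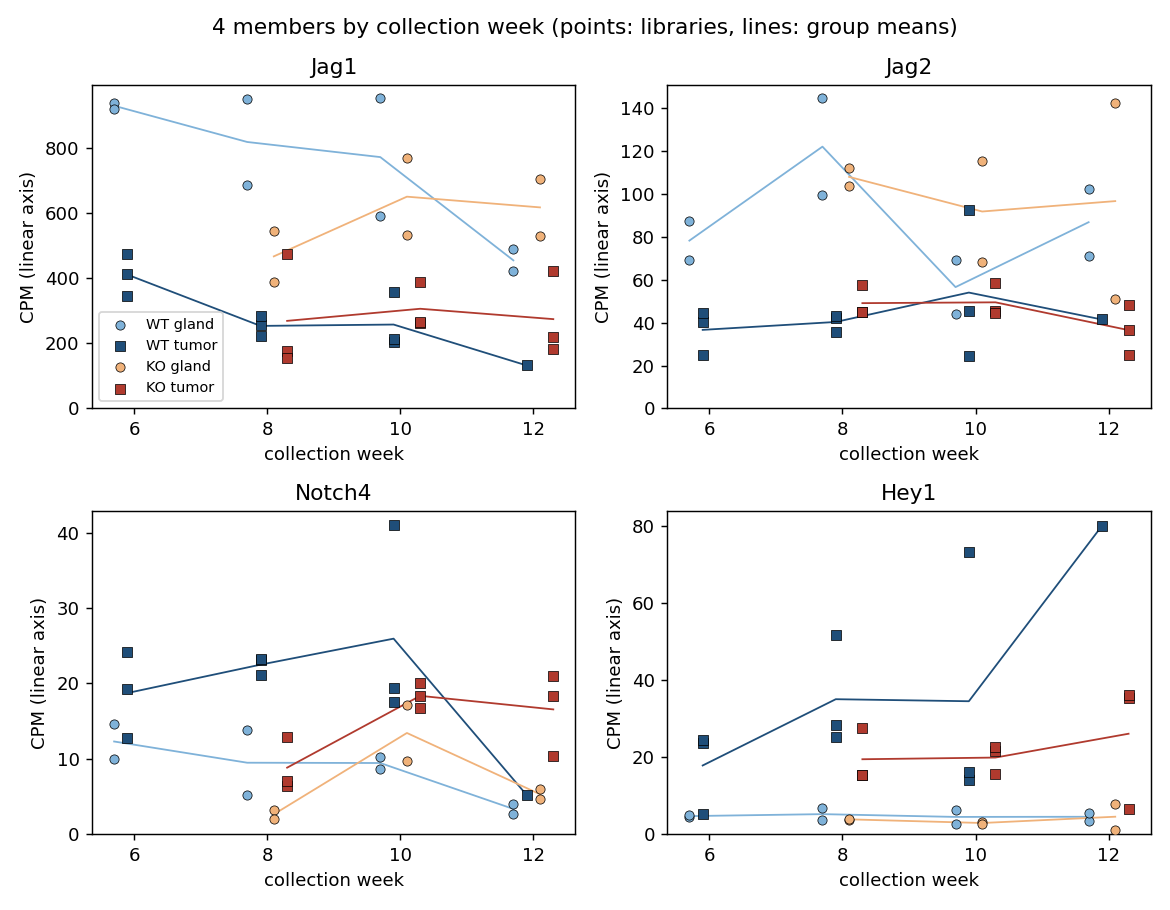
CPM of Jag1, Jag2, Notch4 and Hey1 by collection week on linear axes (points, libraries; lines, group means; the WT tumor of week 12 is 1 library). Hey1 tumors lie above the gland means at every week with a wide spread, and the week 12 WT tumor lies at 80.1 CPM.

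Across tumor weeks none of the 10 genes was called. From week 6 to week 10 in WT tumors, 3 of the 10 had an unadjusted p under 0.05 by edgeR, as did 3122 of all 36527 genes. Of all genes 0.011% were called. The 3 were Dll1 (0.46 ± 0.21), Notch2 (0.31 ± 0.13) and Heyl (2.65 ± 0.90, at 0 to 0.132 CPM in week 6 and 0.163 to 0.756 CPM in week 10). From week 8 to week 12 in KO tumors Notch4 alone of the 10 had such an unadjusted p (0.90 ± 0.36, adjusted p = 0.63 by edgeR). Of all genes, 2878 had one and 0% were called. DESeq2 called none of the 10 in either comparison.

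Between the genotypes, no gene of the 10 was called by edgeR. In WT against KO tumors averaged over weeks 8 and 10, 0.512% of all genes were called. An unadjusted p under 0.05 by edgeR was found for 3996 of all 36527 genes and for 1 of the 10. It was Notch4, higher in WT tumors by 0.92 ± 0.25 on the log2 scale (adjusted p = 0.12 by edgeR), with 17.5 to 41.0 CPM in 6 WT tumors and 6.45 to 20.1 CPM in 6 KO tumors. DESeq2 called Notch4 there (adjusted p = 0.020), as did edgeR without the filter on low counts (adjusted p = 0.0045) and edgeR with the replicate block. Without the first KO tumor of week 8 it was called by edgeR as well, at 1.11 (adjusted p = 0.027).

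At matched tumor stage (WT weeks 6, 8 and 10 against KO weeks 8, 10 and 12), where 1.11% of all genes were called, Notch4 differed by 0.67 ± 0.20 (adjusted p = 0.12 by edgeR and 0.029 by DESeq2). It was also called there by edgeR with the replicate block (adjusted p = 0.093), with only the groups compared (0.095), without the filter on low counts (0.011) and without any of 4 single libraries (0.032 to 0.098). Hes1, lower in WT tumors by 0.42 ± 0.20, also had an unadjusted p under 0.05 (adjusted p = 0.35 by edgeR). Of all 36527 genes, 4832 had one at matched stage. Jag1 differed by 0.08 with an interval of 2 SE from -0.30 to 0.47, Jag2 by -0.05 (-0.47 to 0.37) and Hey1 by 0.37 (-0.36 to 1.10), so that for Hey1 a 2-fold difference lies within the interval.

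In glands averaged over weeks 8, 10 and 12, where 0.906% of all genes were called, 4514 of all 36527 genes had an unadjusted p under 0.05 by edgeR. Notch3 was the 1 gene of the 10 among them. It was higher in WT glands by 0.71 ± 0.26 (adjusted p = 0.23 by edgeR), and DESeq2 called none of the 10. Notch3 was called by edgeR without the filter on low counts (adjusted p = 0.028), and without the first WT gland of week 8 (0.89, adjusted p = 0.097). WT glands held 32.3, 85.4, 53.2, 77.4, 45.0 and 38.6 CPM and KO glands 37.4, 26.2, 61.5, 28.3, 31.9 and 19.3 CPM, so the groups overlapped. In the difference of the tumor effect between genotypes, 0.00548% of all genes and none of the 10 were called. Dll1 alone of the 10 had an unadjusted p under 0.05 by edgeR, as did 2038 of all 36527 genes, and DESeq2 called none of the 10. The rRNA share moved with genotype in all of these comparisons, and with that share as a covariate none of the 10 was called either.

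The other 62 Notch pathway genes examined (ligands, receptor processing, glycosylation, the nuclear complex, ubiquitin ligases and trafficking, other targets) were all tested. In WT tumors 3 of them were called higher and 9 lower, and in KO tumors 1 higher and 8 lower, with median log2 fold changes of -0.07 and 0.04. These were 19.4% and 14.5% of the 62, beside 15.7% and 10.6% of all genes. The 6 called in both fell in both. Numbl, an endocytic adaptor related to the Notch inhibitor Numb, fell by 1.64 ± 0.19 in WT and by 1.26 ± 0.19 in KO tumors. Nrarp, a target whose product limits Notch signaling, fell by 0.79 ± 0.18 and by 0.87 ± 0.18. Neurl1a, a ubiquitin ligase of ligands, fell by 2.2 ± 0.17 and by 1.34 ± 0.17.

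Eogt, which adds a sugar to the receptors' extracellular repeats, fell by 0.78 ± 0.16 in WT and by 0.74 ± 0.16 in KO tumors. Dtx1, a Deltex ubiquitin ligase, and Dlk2, a ligand-like protein, also fell, at levels of at most 1.63 and 3.27 CPM in any library. Nrarp thus fell in tumors in which Hey1 rose, though both are counted as targets. Among targets outside the 10, Nrarp was 1 of 6 called in each genotype.

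**Figure D5:**
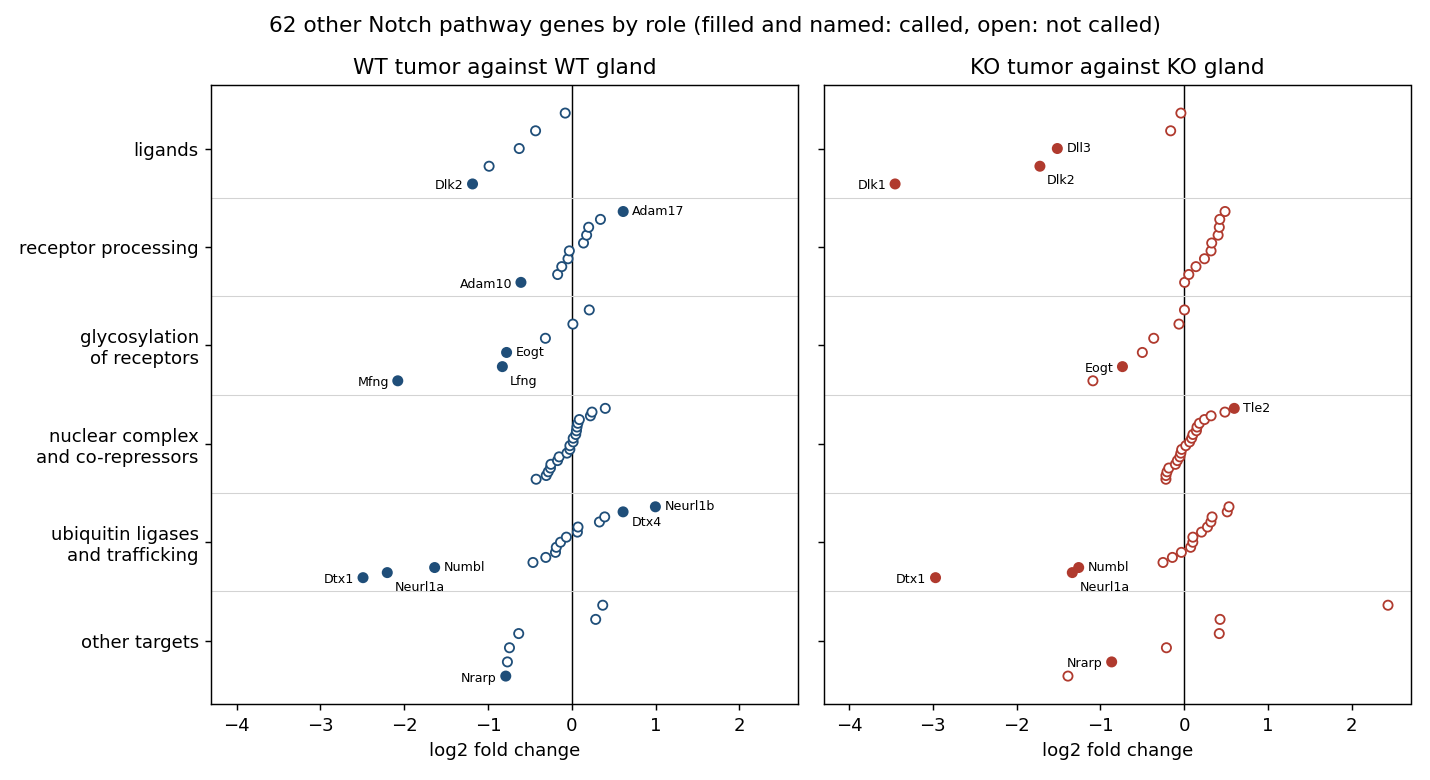
Log2 fold change of the other 62 pathway genes in tumors against glands by role, WT on the left and KO on the right (filled and named, called; open, not called). Most genes lie near 0, and Numbl, Neurl1a, Dtx1, Eogt, Dlk2 and Nrarp lie to the left in both genotypes.

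Between genotypes none of these 62 was called in tumors of weeks 8 and 10. At matched stage, where 1.11% of all genes were called, 2 of the 62 were lower in WT tumors: Dlk2 (-0.85 ± 0.24) and the endocytic kinase Aak1 (-0.63 ± 0.12), with adjusted p of 0.083 and 0.0078 by edgeR. Dlk2 was also lower in WT than in KO glands (-1.06 ± 0.28, adjusted p = 0.081 by edgeR).

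The pattern of a gene over libraries was compared with that of the 13324 genes at a mean of at least 1 CPM (the gene itself left out), by Pearson's r of log2 CPM over the 33 libraries, which share tissue, genotype and depth. Jag1 was most like Efnb1 (r = 0.971), an ephrin ligand, Ccn4 (0.957) and Capn2 (0.951), and with Efnb1 r was 0.930 within the 19 tumors and 0.932 within the 14 glands. Hey1 was most like Pde7b (0.947), Acss1 (0.946) and Arrdc3 (0.943), and within glands these fell to 0.728, 0.569 and 0.541. Jag2 was most like Pltp (0.927), Medag (0.912) and Bcl11b (0.910). Notch4 was most like Zfp81 (0.895), Rsrc1 (0.882) and Rgn (0.880), Notch3 like Cemip2 (0.885), Pof1b (0.883) and Mtss1 (0.872), and Heyl like Cnot6l (0.792), Morrbid (0.764) and Gpx3 (0.736). These values describe likeness over the libraries and carry no test.

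Reads of the overlapping genes counted here were few, and A930024N18Rik, on the opposite strand at Dll1, was not analysed. The largest share was at Notch2, where Gm42819 and Gm42820, on the same strand, held 5203 and 4144 reads in all libraries beside 468067 of Notch2. At Notch1 the antisense 0610009E02Rik held 1205 reads beside 286600. Whether the counting used strand is not given in the sources used here, so the counts at such overlaps are uncertain.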

How the data were processed

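Total RNA of sorted GFP+ cells was depleted of rRNA and sequenced as stranded paired-end libraries. The authors aligned reads with HISAT to GRCm38 and Gencode M16, removed duplicates with Picard 1.128 and deposited HTSeq counts per gene, which were analysed here. A second deposited table holds normalized signal, each library's counts over its own size factor. Whole reads were recovered for 100% of its values (tolerance 0.1 reads, 35323 identifiers) and refitted as an alternative. In 2 of the 33 libraries the size factor was close to 1, and whole reads cannot be told from rounding there.

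The 111 spike-in, reporter and transgene rows (0.0778% of reads) were left out. Groups came from the labels, and none of 25 pairs of libraries of 1 condition were duplicates (lowest chi-square per degree of freedom 37.4). Genes with at least 10 reads were fitted with edgeR 4.0.16 (R 4.3.3, TMM scaling, 1 coefficient per genotype, tissue and week, quasi-likelihood test), and each comparison is a contrast of that fit. CPM used the TMM-scaled library size. The fit was tested on simulated data. Each library is 1 mouse, so p-values measure the spread between mice. The WT tumor of week 12 entered no contrast. Coordinates and exonic lengths are from Gencode M21 (GRCm38).

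Alternatives were DESeq2 1.42.0, its size factors, no filter, only the groups compared, a replicate block, the rRNA share as a covariate, the recovered reads and each library left out (edgeR with the dispersion trend of all libraries), and, added after seeing the data, 3 libraries with over 10% rRNA left out. The members, gene lists and markers were chosen with earlier results of these data known. Other pathway genes were named where called in both averaged comparisons or between genotypes, and the 3 genes most alike were listed for members called in either averaged comparison. A pathway gene of that list is not reported here and was left out of its counts. The motifs CACGNG and CACGCG and the promoters shown were chosen after values were seen.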

Additional observations from a re-analysis of the deposited data

Results flagged for a closer look

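The single WT tumor of week 12 entered no comparison. It held Notch1 at 205 CPM and Hey1 at 80.1 CPM, both above every WT gland (102 to 162 CPM for Notch1 and 2.60 to 6.83 CPM for Hey1). With 1 library of this group there was no test, and the values are given as a description.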

How the results depend on the processing

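The averaged calls of Hey1, Notch4, Jag1 and Jag2 in both genotypes stood under every alternative run, with 4 members called in KO tumors in all of them and 5 to 6 in WT tumors. Of the values of single genes under alternatives, 65 lost their call, 44 gained one and none reversed a call. The cause of these changes was not tested. The averaged call of Heyl in WT tumors was lost with the replicate block, with only the groups compared and without any of 9 libraries (-1.85 to -0.43 over all 15). The other results that moved were the weekly ones, with 2 glands, and the comparisons between genotypes and between tumor weeks.

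With DESeq2, members called rose to 4 in WT tumors of week 6, to 3 in KO tumors of week 8, to 2 at week 10, and to 1 in WT against KO tumors and at matched stage. All genes called were then 1695 in KO tumors of week 8 (edgeR, 909), 664 in WT against KO tumors (187), 655 at matched stage (404), 741 in WT against KO glands (331), 74 for the difference of the tumor effect (2), 253 between WT tumors of weeks 10 and 6 (4) and 125 between KO tumors of weeks 12 and 8 (0). Without the filter on low counts, members called were 4 in WT tumors of week 6, 3 in KO tumors of weeks 8 and 10, and 1 in WT against KO tumors, at matched stage and in WT against KO glands, and all genes called were 1613, 573, 632, 722, 138, 440 and 176 in the same order of comparisons.

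With only the groups compared, members called were 4 in WT tumors of week 6, 1 at week 10, 3 in KO tumors of weeks 8 and 10, 0 at week 12 and 1 at matched stage. All genes called were 995 in WT tumors of week 10 (all libraries, 2240), 1416 in KO tumors of week 8, 0 at week 12 (2233), 67 in WT against KO glands, 0 for the difference and for WT tumor weeks, and 1 for KO tumor weeks. With DESeq2 size factors, and with the reads recovered from the normalized table, 2 members were called in KO tumors of week 10. With the rRNA share as a covariate, 0 members were called in WT tumors of week 6 and 2 in KO tumors of week 10, and all genes called were 116 in WT against KO tumors, 206 at matched stage and 52 in glands. Without the 3 libraries of over 10% rRNA, an alternative chosen after seeing the data, 0 members were called in KO tumors of week 8 and 1 at week 12, and all genes called were 169 in KO tumors of week 8, 91 in WT against KO tumors, 262 at matched stage, 25 in glands and 0 for the difference.

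The labels do not say that replicate numbers pair the mice. Deviations of same-numbered libraries from their group means correlated at a median of -0.0595 (24 pairs, -0.572 to 0.468). In groups of 2 glands the deviations mirror each other, so this check cannot decide on pairing. With the replicate block, 0 members were called in WT tumors of week 6, and 1 (Notch4) in WT against KO tumors and at matched stage. Leaving out each library in turn gave, for members called and all genes called, 0 to 2 and 492 to 1819 in WT tumors of week 6, 2 to 4 and 2202 to 2561 at week 8, 0 to 3 and 1212 to 2331 at week 10, 0 to 1 and 45 to 950 in KO tumors of week 8, 0 to 2 and 690 to 1965 at week 10, and 1 to 3 and 1448 to 2868 at week 12. For the averaged comparisons they were 5 to 6 and 4506 to 5797 in WT and 4 to 4 and 3212 to 4083 in KO tumors. Between genotypes they were 0 to 1 and 53 to 585 in tumors, 0 to 1 and 180 to 696 at matched stage, 0 to 1 and 61 to 773 in glands, and 0 to 0 and 0 to 14 for the difference, and between weeks 0 to 0 and 0 to 374 in WT and 0 to 0 and 0 to 211 in KO tumors. Depth limits Heyl, at 39 reads or fewer per library.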

Other observations

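Some values of weeks outside the tumor contrasts stood apart and are given without a test. In the 2 WT glands of week 12 Jag1 was at 421 and 489 CPM, below the 6 earlier WT glands (591 to 952 CPM), and Notch4 was at 2.71 and 4.0 CPM, below their 5.21 to 14.6 CPM. In the WT tumor of week 12 Jag1 was at 132 CPM and Notch4 at 5.20 CPM, below the 9 earlier WT tumors, which held 203 to 473 CPM and 12.8 to 41.0 CPM. The 2 genes that moved in opposite directions between tumors and glands were thus both lowest at the latest WT collection. KO mice did not show this: mean Jag1 in KO glands was 467 CPM at week 8 and 617 CPM at week 12. Mean Notch4 in these weeks was 2.64 and 5.31 CPM in KO glands, and 8.83 and 16.6 CPM in KO tumors.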
